A study of Rattus norvegicus with 6 samples.

Results

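The genes described here encode the constitutive subunits of the proteasome. They were taken by name, as every gene whose symbol in the annotation of the array is Psma, Psmb, Psmc or Psmd followed by a number, without the immunoproteasome genes Psmb8, Psmb9 and Psmb10. Of the 14217 genes that a probe set measured alone, 33 met this rule, and where several probe sets measured a gene, the one with the highest average over the 6 arrays was taken. Expression was measured in dissociated spinal cord cultures of newborn rats (postnatal days 1 to 4) after 8 days in vitro. The 3 control cultures grew on coverslips coated with polyornithine and the 3 CNT cultures on coverslips covered with carbon nanotubes, and nothing else was said to differ between the groups. The labels give the strain as Sprague-Dawley, where the methods name Wistar rats. Each culture gave 1 array, so the number of arrays limits the precision, and in cultures of mixed cells a lower share of a cell type and less RNA per cell cannot be told apart. Psma8, Psmb6 and Psmb11 had no probe set of their own. Psmb6 shared a probe set with Psmb6l1, and it was left out of the 33 genes.

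The proteasome is the protease that degrades proteins marked with ubiquitin. Its 20S core is a stack of rings of alpha subunits, which gate the entry, and of beta subunits, of which those encoded by Psmb5, Psmb6 and Psmb7 carry the catalytic sites. The 19S regulatory particle caps the core, with a base of ATPases (the Psmc genes) that unfold the substrate and a lid of other subunits (most Psmd genes) that takes off the ubiquitin. Under interferon, cells replace the catalytic subunits with Psmb8, Psmb9 and Psmb10, which make up the immunoproteasome. Proteasome genes are known to be transcribed in concert, through the factor Nfe2l1 and the antioxidant response element, and with NF-Y, which binds the CCAAT box.

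The promoters of 2 constitutive catalytic subunits and of their immunoproteasome counterparts are shown because these pairs are compared within each array below. Each sequence runs from 250 bases before the start of the gene to 50 after it (RefSeq, build GRCr8, read on the strand of the gene). Capitals mark 3 motifs found on either strand, which are TGACNNNGC (the core of the antioxidant response element), CCAAT, and GAAA repeated after 2 bases of any kind (the core of the interferon-stimulated response element). The last of them was added after the expression values had been seen.
Psmb5 (chr15:32047330-32047629, - strand): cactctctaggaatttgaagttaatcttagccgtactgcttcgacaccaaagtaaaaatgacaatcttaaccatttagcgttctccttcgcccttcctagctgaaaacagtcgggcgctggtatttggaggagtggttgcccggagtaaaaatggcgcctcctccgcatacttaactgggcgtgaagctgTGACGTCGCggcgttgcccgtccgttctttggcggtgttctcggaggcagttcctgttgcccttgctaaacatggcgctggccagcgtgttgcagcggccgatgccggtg
Psmb8 (chr20:4656982-4657281, - strand): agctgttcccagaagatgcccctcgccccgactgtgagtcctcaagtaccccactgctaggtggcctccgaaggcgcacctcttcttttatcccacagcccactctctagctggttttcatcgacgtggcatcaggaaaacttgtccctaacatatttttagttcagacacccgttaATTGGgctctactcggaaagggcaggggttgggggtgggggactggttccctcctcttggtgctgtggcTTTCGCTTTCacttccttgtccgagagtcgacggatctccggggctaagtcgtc
Psmb7 (chr3:42827421-42827720, - strand): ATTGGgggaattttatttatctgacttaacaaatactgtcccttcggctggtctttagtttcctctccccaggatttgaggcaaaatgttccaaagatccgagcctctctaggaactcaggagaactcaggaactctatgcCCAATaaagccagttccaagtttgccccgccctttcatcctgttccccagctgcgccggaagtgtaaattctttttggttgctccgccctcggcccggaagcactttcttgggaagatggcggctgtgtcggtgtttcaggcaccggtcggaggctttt
Psmb10 (chr19:50743243-50743542, - strand): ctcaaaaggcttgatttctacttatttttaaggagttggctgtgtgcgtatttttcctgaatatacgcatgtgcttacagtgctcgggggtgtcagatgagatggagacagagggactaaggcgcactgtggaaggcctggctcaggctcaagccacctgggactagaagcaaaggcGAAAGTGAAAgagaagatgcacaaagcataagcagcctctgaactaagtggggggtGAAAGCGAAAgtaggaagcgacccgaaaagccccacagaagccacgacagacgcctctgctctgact
The Psmb5 window held TGACNNNGC with its first base at position -60, and no match to the other motifs. The Psmb8 window held the GAAA repeat from position -4 and CCAAT from position -73, and the Psmb10 window held the GAAA repeat from positions -73 and -17. The window of Psmb9, the third immunoproteasome gene, held no GAAA repeat. Only CCAAT was found in the Psmb7 window, from positions -250 and -109. Promoters of 29 of the 33 genes were at hand (those of Psma7, Psmd6, Psmd12 and Psmd14 were not analysed here). CCAAT was present in 16 of the 29 (55.2%), against 37.5% of all 33469 promoters. TGACNNNGC was present in 6 (20.7%, against 12.1%), those of Psma3, Psmb2, Psmb5, Psmd1, Psmd3 and Psmd9. The GAAA repeat was present in 3 (10.3%, against 3.92%), those of Psma4, Psmb3 and Psmd7. Over the 13193 promoters of genes on the array the shares were 36.8% for CCAAT, 14.1% for TGACNNNGC and 3.02% for the GAAA repeat. Matches to different motifs overlapped once in the 29 windows, in Psmb2. A match is a match of letters, and binding was not measured.

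Some features of the arrays bear on all values given here. The log2 signal of beta-actin at its 3' end minus that at its 5' end, a sign of RNA quality, was 2.20, 0.62 and 0.66 in control 1, 2 and 3 and 0.92, 2.20 and 1.72 in CNT 1, 2 and 3. The difference for GAPDH was from 0.18 to 0.82 in control and from 0.22 to 0.59 in CNT cultures. All 10 microglia and macrophage markers measured had a positive log2 fold change, and their mean level ran from 11.73 to 12.48 in control and from 12.14 to 12.71 in CNT cultures. Of 8 fibroblast and meningeal markers 7 were negative, at 12.76 to 13.17 and at 11.76 to 12.79. The 10 neuron markers had ranges that overlapped, from 9.24 to 9.55 in control and from 9.29 to 9.45 in CNT cultures. Astrocyte markers, all 8 of which were negative, were at 12.14 to 12.53 and at 11.96 to 12.43. For oligodendrocyte markers (7 of 8 measured, 5 positive) the ranges were 11.66 to 12.52 and 11.44 to 12.91, and for endothelial markers (5 of 6, all positive) 6.62 to 6.79 and 6.78 to 6.96. Their part in the values of the proteasome genes was not tested.

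The constitutive proteasome genes were expressed at similar levels on both substrates. Their log2 fold changes (CNT minus control, from limma) lay between -0.08 for Psma7 and 0.17 for Psmd13, which are folds of 0.949 and 1.12. The median over the 33 genes was 0.04, and it was 0.03 over all 14217 genes. No gene of the 33 passed an adjusted p of 0.05 in limma, as none did of all genes (0%), and the lowest adjusted p among them was 0.999. At an unadjusted p under 0.05, limma called 0 of the 33 higher and 0 lower, against 2.41% and 0.71% of all genes. Psmb4 was the only one of the 33 whose CNT values were all higher than its control values (3.03%, against 5.94% of all genes), and 0 of the 33 had them all lower (against 2.05%). Leaving out CNT 2 raised the first count to 7 (8.50% of all genes), leaving out control 1 or CNT 1 raised it to 5 (11.6% and 11.1%), and leaving out control 2 raised it to 4 (10.1%). With both control 1 and CNT 2 left out it was 11 (33.3%, against 15.3%). The second count became 2 when CNT 1 was left out (6.06%, against 5.11% of all genes) and 1 when control 3 was (3.03%, against 7.72%). The p-values set each difference against the spread between these cultures, which limma draws towards the spread of all genes.

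A p that misses the threshold does not show that the levels are alike. The 95% intervals of the fold changes were therefore set against a limit of 1.5-fold, chosen after the values were seen. In 32 of the 33 genes the whole interval lay within 1.5-fold in both directions (97%). This held for 63.6% of all genes and for 68.3% of the 4343 genes whose mean lay in the range of the 33, from 10.76 to 13.87. The exception was Psmd3, with an interval from -0.62 to 0.58, and for all 33 the interval lay within 2-fold (against 86.4% of all genes). None of the 33 had a mean past 1.5-fold, against 4.24% of all genes. With both control 1 and CNT 2 left out, where this beta-actin difference was largest, 27 of the 33 intervals lay within 1.5-fold (46.2% of all genes). The SD within groups had a median of 0.12 over the 33 genes, and of 0.18 over the genes of that range and 0.19 over all genes. Of the 33, 22 had a positive log2 fold change (66.7%, against 58.5% of all genes and 50.2% of the genes of that range). With other scalings 22 were positive after cyclic loess (48.3% of all genes), 20 after quantile normalization (48.4%) and 17 after median centring of the arrays (47.7%).

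**Figure D1:**
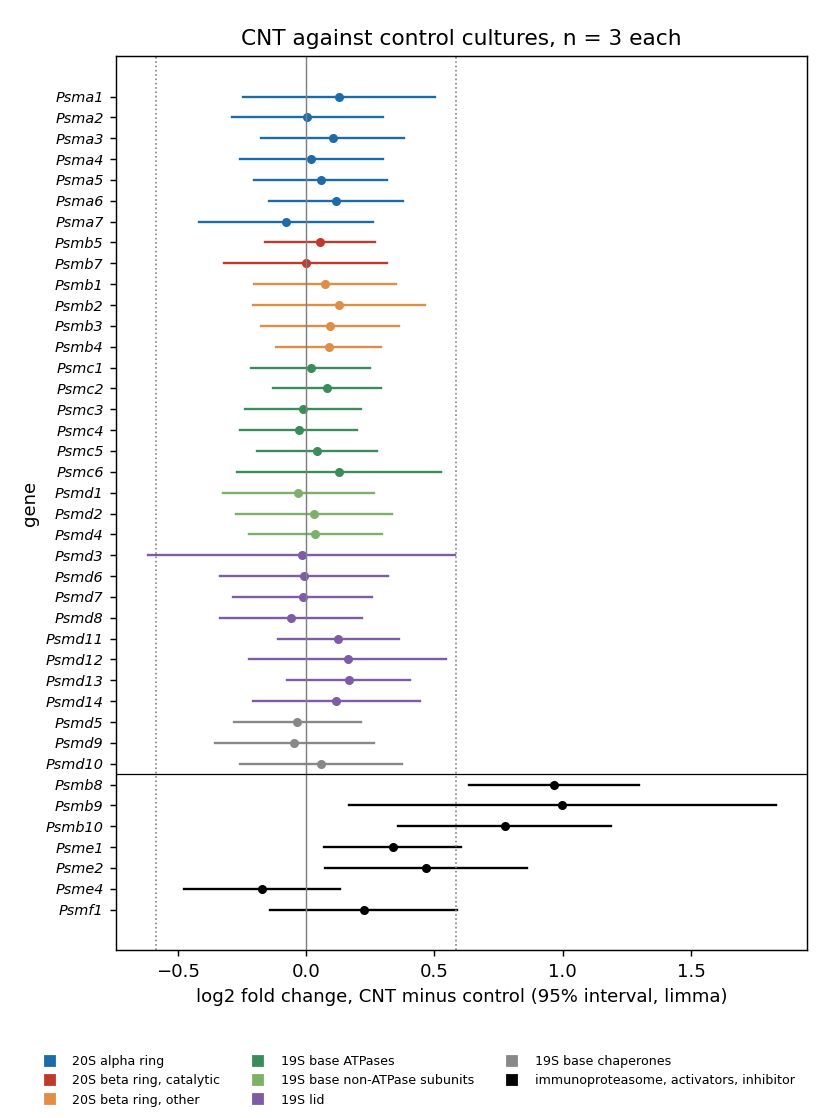
Log2 fold changes (CNT minus control, n = 3 each) of the 33 constitutive proteasome genes, coloured by subcomplex, and below the line those of the immunoproteasome genes, the activators Psme1, Psme2 and Psme4 and the inhibitor Psmf1. Points are estimates from limma, lines are 95% intervals, dotted lines mark 1.5-fold, and of the coloured intervals only that of Psmd3 reaches past them.

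The 7 alpha subunit genes, which form the outer rings of the core, had a median log2 fold change of 0.06, and 6 of them were positive. Psma1 had the highest, at 12.36, 12.18 and 12.62 log2 units in control 1, 2 and 3 and at 12.55, 12.33 and 12.67 in CNT 1, 2 and 3. This is a log2 fold change of 0.13 (95% interval -0.25 to 0.50), and the groups overlapped, with control 2 lowest and CNT 3 highest. Psma7 had the lowest, at 13.02, 13.14 and 13.23 in control and at 13.16, 12.81 and 13.20 in CNT cultures. Its log2 fold change was -0.08 (95% interval -0.41 to 0.26), and CNT 2 stood below every other array. Without CNT 2 the log2 fold change of Psma7 was 0.05. The other 5 genes lay in between, with log2 fold changes of 0.0058 for Psma2, 0.10 for Psma3, 0.02 for Psma4, 0.06 for Psma5 and 0.12 for Psma6. A further probe set that Psma3 shares with Psma3l gave -0.05, where the one of Psma3 alone gave 0.10.

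The catalytic subunits measured were those of the chymotrypsin-like site (Psmb5) and of the trypsin-like site (Psmb7). Psmb5 was at 13.60, 13.60 and 13.54 in control and at 13.70, 13.59 and 13.61 in CNT cultures, a log2 fold change of 0.05 (95% interval -0.16 to 0.27). These 6 values spanned 0.16 log2 units and overlapped between groups. Psmb7 was at 12.60, 12.71 and 12.63 in control and at 12.88, 12.47 and 12.58 in CNT cultures, a log2 fold change of -0.0016 (95% interval -0.32 to 0.31). Here CNT 1 was the highest and CNT 2 the lowest of all arrays, so that the CNT cultures enclosed the control cultures. The 4 other beta subunit genes had log2 fold changes of 0.07 (Psmb1), 0.13 (Psmb2), 0.09 (Psmb3) and 0.09 (Psmb4). Psmb4 was at 13.84, 13.82 and 13.82 in control and at 13.96, 13.87 and 13.92 in CNT cultures. Its groups did not overlap, yet they were 0.09 apart (95% interval -0.12 to 0.29, unadjusted p = 0.335 and adjusted p = 0.999 from limma). The SD within groups of Psmb4 was 0.03, the lowest of the 33 genes. In limma this SD was drawn up towards that of all genes, which widened the interval. Psmb2, the highest of the 4, was at 12.45, 12.73 and 12.71 in control and at 12.88, 12.55 and 12.84 in CNT cultures, with control 1 and CNT 2 at the bottom. Psmb1, the lowest, was at 13.33, 13.50 and 13.53 and at 13.58, 13.38 and 13.63, and the same arrays were lower than the rest of their group.

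The immunoproteasome counterparts were set against these subunits within each array, which asks whether both versions shifted alike. Psmb8, which takes the place of Psmb5, was at 11.24, 11.29 and 11.65 in control and at 12.31, 12.35 and 12.42 in CNT cultures, a log2 fold change of 0.97 (SE 0.14, adjusted p = 0.999 from limma). The difference Psmb8 minus Psmb5 was thereby 0.91 log2 units higher in CNT (-1.27 ± 0.11, SD, n = 3) than in control cultures (-2.18 ± 0.26, SD, n = 3), with an exact two-sided permutation p of 0.1. Psmb10, which takes the place of Psmb7, was at 10.67, 10.84 and 11.21 in control and at 11.50, 11.80 and 11.75 in CNT cultures, a log2 fold change of 0.77 (SE 0.17, adjusted p = 0.999 from limma). The difference Psmb10 minus Psmb7 was 0.78 higher in CNT (-0.96 ± 0.37, SD, n = 3) than in control cultures (-1.74 ± 0.28, SD, n = 3), with the same exact permutation p of 0.1. This is the smallest p that 3 arrays against 3 can give, and it is also 0.1 after Benjamini-Hochberg adjustment over the 2 pairs tested. The pair of Psmb9 and Psmb6 was planned too but not tested, as Psmb6 had no probe set of its own. The adjustment thus covers fewer pairs than were planned. In both tested pairs the groups did not overlap, and CNT cultures were higher by 0.49 and by 0.04 log2 units at the nearest arrays. Without control 1 and CNT 2 the shifts were 0.81 for Psmb8 minus Psmb5 and 0.54 for Psmb10 minus Psmb7. For Psmb9, the counterpart of Psmb6, the log2 fold change was 1.00 (SE 0.34), and control 3 (12.04) lay within its CNT range from 12.01 to 12.65. The 9 genes of the type I interferon response measured were all positive, with a median log2 fold change of 2.79 and a mean level from 8.52 to 11.53 in control and from 11.90 to 12.78 in CNT cultures, and their part in these shifts was not tested.

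**Figure D2:**
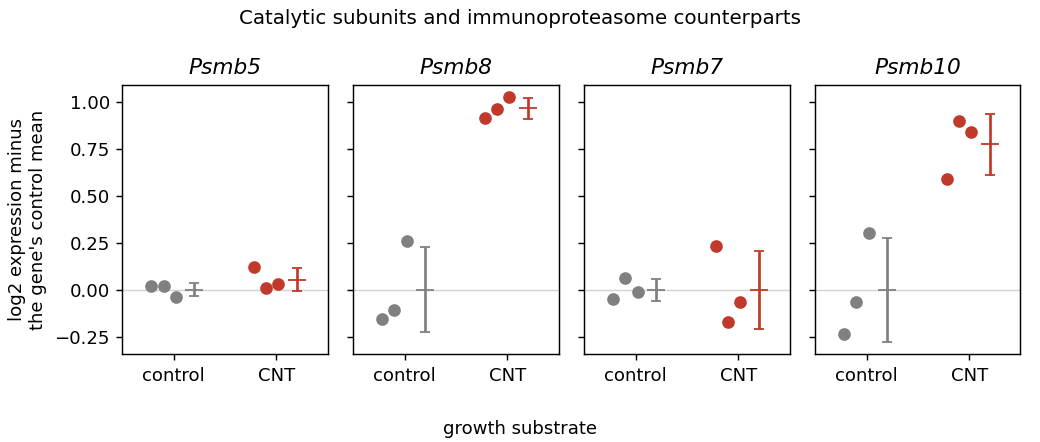
Log2 expression of the catalytic subunit genes Psmb5 and Psmb7 and of their immunoproteasome counterparts Psmb8 and Psmb10, minus the control mean of each gene, in control (grey) and CNT (red) cultures. Each point is an array, ticks show the mean and bars the SD (n = 3), and the groups are apart for Psmb8 and Psmb10 and overlap for Psmb5 and Psmb7.

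The 6 ATPase genes of the 19S base had a median log2 fold change of 0.03, and 4 of them were positive. They varied little between cultures, with a median SD within groups of 0.07. Psmc6 was the exception, at 11.66, 11.11 and 11.50 in control and at 11.46, 11.52 and 11.68 in CNT cultures. Its log2 fold change of 0.13 (95% interval -0.27 to 0.52) was the highest of the 6, and control 2 stood below all other arrays. Without control 2 it was -0.03. The lowest was that of Psmc4, at 12.62, 12.44 and 12.47 in control and at 12.51, 12.47 and 12.47 in CNT cultures, a log2 fold change of -0.03 (95% interval -0.26 to 0.20). The CNT cultures of Psmc4 thus fell between the control cultures. The others had log2 fold changes of 0.02 (Psmc1), 0.08 (Psmc2), -0.01 (Psmc3) and 0.04 (Psmc5). Psmd1 and Psmd2, the large scaffold subunits of the base, and Psmd4, one of its ubiquitin receptors, had log2 fold changes of -0.03, 0.03 and 0.04. Psmd1 was at 11.62, 11.32 and 11.33 in control and at 11.36, 11.49 and 11.34 in CNT cultures, with control 1 the highest. Psmd4 was at 11.34, 11.58 and 11.48 and at 11.60, 11.46 and 11.45, with control 1 the lowest.

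The 8 lid genes had a median log2 fold change of 0.06, with 4 positive and 4 negative. Psmd13 had the highest of all 33 genes, at 11.74, 11.61 and 11.68 in control and at 11.74, 11.94 and 11.85 in CNT cultures. This is a log2 fold change of 0.17 (95% interval -0.07 to 0.41, unadjusted p = 0.14 and adjusted p = 0.999 from limma), and CNT 1 lay just below control 1. Psmd8 had the lowest of the lid, at 12.06, 12.26 and 12.20 in control and at 12.27, 12.03 and 12.04 in CNT cultures, a log2 fold change of -0.06 (95% interval -0.33 to 0.22). The groups of Psmd8 overlapped over nearly their whole range. Psmd3 varied most between cultures, which was seen only after its values were known. It was at 10.57, 11.22 and 10.51 in control and at 11.08, 10.70 and 10.47 in CNT cultures, a range of 0.75 log2 units around a log2 fold change of -0.02. Control 2 and CNT 1 stood above the other arrays. Psmd14, the lid subunit that cleaves ubiquitin off the substrate, had a log2 fold change of 0.12, and Psmd6, Psmd7, Psmd11 and Psmd12 had -0.0073, -0.01, 0.13 and 0.16.

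Of the genes with several probe sets, those of Psmd14 were the furthest apart. The probe set with the highest mean was at 12.75, 12.46 and 12.78 in control and at 12.62, 12.85 and 12.87 in CNT cultures. The second gave 11.24, 11.76 and 11.74 in control and 11.89, 11.29 and 11.50 in CNT cultures, a log2 difference of -0.02. The third, with the lowest mean, gave 9.16, 10.61 and 9.53 in control and 11.27, 10.08 and 9.65 in CNT cultures, a log2 difference of 0.56. Control 2 and CNT 1 were the lowest arrays in the first of these and the highest in the third. For the other genes with several probe sets, the log2 differences were 0.05, 0.16 and 0.15 for Psmb5, -0.03 and 0.01 for Psmc4, 0.13, 0.30 and 0.0026 for Psmc6, -0.01 and -0.09 for Psmd7, -0.05 and 0.08 for Psmd9, and 0.13, -0.03 and 0.02 for Psmd11.

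Psmd5, Psmd9 and Psmd10 encode chaperones that help to assemble the 19S base and then leave it. Psmd10 had the highest log2 fold change of the 3, at 11.53, 11.64 and 11.51 in control and at 11.79, 11.39 and 11.67 in CNT cultures (0.06, 95% interval -0.26 to 0.38). Psmd9 had the lowest, at 10.78, 10.93 and 10.79 in control and at 10.96, 10.58 and 10.82 in CNT cultures (-0.05, 95% interval -0.36 to 0.26). That of Psmd5 was -0.03. In all 3 genes CNT 1 was the highest and CNT 2 the lowest of the 6 arrays, so that the control cultures lay inside the CNT range.

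Single cultures differed more than the groups did, and the subcomplexes did not differ in the same way. CNT 1 was the highest array for 15 of the 33 genes (45.5%), against 14.7% of all genes and 11.6% of the genes of the same range of means. Control 2 was the lowest for 11 (33.3%, against 18.7% of all genes and 19.4% of the genes of that range). CNT 2 was the lowest for 9 (27.3%, against 14.2% and 19.2%). All 7 alpha subunit genes lay below their own mean over the 6 arrays in control 1, and 5 of the 7 did so in CNT 2. Both of these arrays were below the mean in 16 of the 33 genes (48.5%, against 14.8% of all genes), namely in 5 of 7 alpha, 5 of 6 beta, 0 of 6 ATPase, 1 of 3 other base, 3 of 8 lid and 2 of 3 chaperone genes. On these arrays the 3' to 5' difference of beta-actin was largest, and the part of RNA quality in this was not tested. CNT 3, with the next largest difference (1.72), was the highest array for 4 of the 7 alpha genes. Control 2 and CNT 1 were both above the mean in 19 of the 33 genes (57.6%, against 33.6%). Over all genes, the deviations of these 2 arrays from their group means correlated at 0.68.

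**Figure D3:**
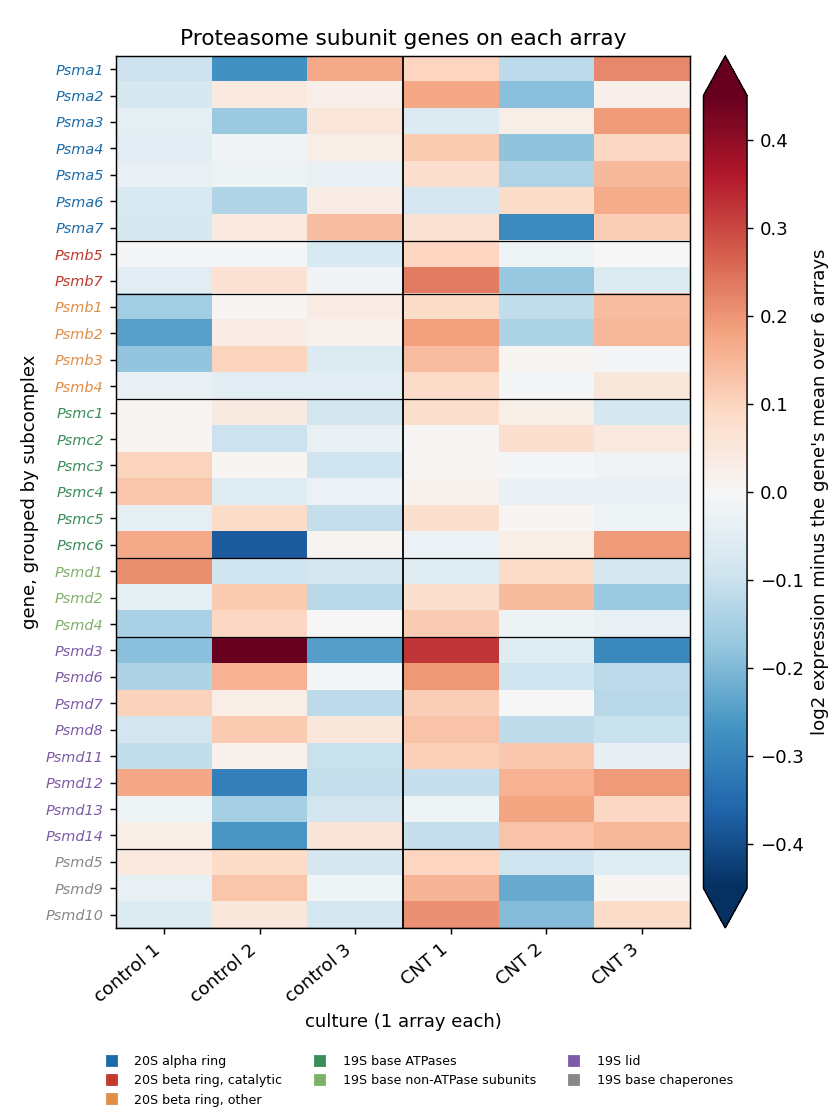
Log2 expression of each of the 33 genes (rows, grouped and coloured by subcomplex) on each of the 6 arrays (columns), minus the mean of the gene over the arrays. Red is higher and blue lower, and the colour scale ends at 0.45. The largest departures are Psmd3 in control 2 (0.46), Psmc6 in control 2 (-0.38) and Psmd3 in CNT 1 (0.32).

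The member that varied most alike over the 6 arrays was of the same subcomplex for 13 of the 33 genes, among them 6 of the 7 alpha genes. Catalytic and other beta genes were taken as separate subcomplexes here, so Psmb4 and Psmb5, each most like the other, were not counted. The share that the sizes of the subcomplexes alone would give was not computed. Pearson correlations over the 6 arrays, which share RNA quality and scaling and are given as a description, had a median of 0.62 over the 21 pairs of alpha genes and of 0.59 over the 6 pairs of noncatalytic beta genes. The median was 0.49 between these 2 groups, 0.19 among the ATPase genes, 0.02 among the lid genes and -0.12 between alpha and lid genes. Over all 528 pairs it was 0.15, and over pairs of genes of the same range of means 0.0020. The closest pair was Psmb1 and Psmb2 (0.97), followed by Psmc2 and Psmd13 (0.96) and by Psma3 and Psma6 (0.96). Psmd6 and Psmd8 reached 0.95, and so did Psmb3 and Psmd4, whose products sit in different parts of the complex.

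**Figure D4:**
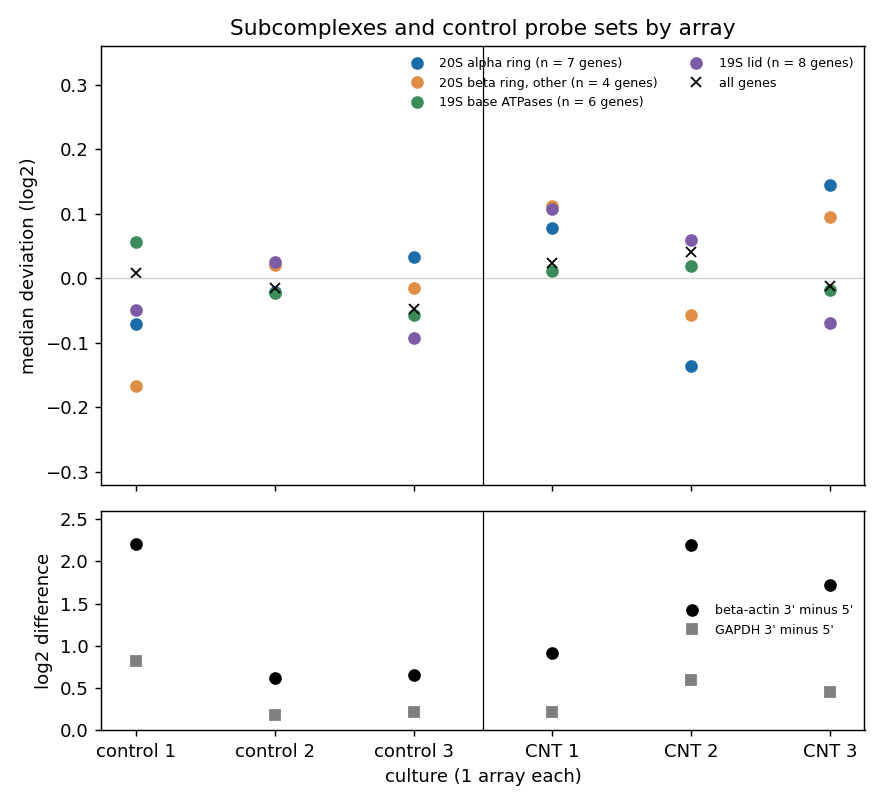
Top, the median deviation of the genes of 4 subcomplexes from the mean over the 6 arrays (log2), by array, with crosses for all genes. Bottom, the log2 difference between the 3' and 5' control probe sets of beta-actin and GAPDH on the same arrays. The alpha ring is at -0.14 in CNT 2 and -0.07 in control 1, where the beta-actin difference is 2.20 in both. It is highest in CNT 3 (0.14), where that difference is 1.72.

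Genes that work with the proteasome were examined as lists. Of the activators, Psme1 and Psme2, the PA28 subunits that interferon induces, had log2 fold changes of 0.34 (95% interval 0.07 to 0.60) and 0.47 (95% interval 0.08 to 0.86). Psme1 was at 12.73, 12.80 and 13.03 in control and at 13.16, 13.19 and 13.21 in CNT cultures, and Psme2 at 12.20, 11.97 and 12.43 and at 12.57, 12.55 and 12.89. In both the groups did not overlap, and neither passed (adjusted p = 0.999 from limma). The PA200 activator gene Psme4 and the inhibitor Psmf1 had -0.17 and 0.22, and Psme3 shares its probe sets with other genes. The 5 chaperones of 20S assembly, Pomp and Psmg1 to Psmg4, had a median of 0.06, from -0.09 for Psmg2 to 0.15 for Pomp. The 8 factors bound to the proteasome, among them the deubiquitinases Usp14 (-0.03) and Uchl5 (0.10), had a median of 0.0009. The 8 genes of proteasome gene transcription had a median of 0.0042, and Nfe2l1 was at 9.90, 10.99 and 10.57 in control and at 10.79, 10.42 and 10.50 in CNT cultures, a log2 fold change of 0.08 (95% interval -0.61 to 0.77). The ubiquitin-activating enzymes Uba1 and Uba6 had -0.06 and -0.02, and the genes of ubiquitin itself had no probe set of their own. The 9 genes of substrate delivery measured had a median of -0.07, with 2 positive, and Vcp, the ATPase that extracts ubiquitinated proteins, had the lowest (-0.21, 95% interval -0.59 to 0.16). Rad23b, a shuttle for ubiquitinated proteins, was lower in every CNT array than in every control array, as were 2.05% of all genes. It was at 13.286, 13.148 and 13.148 in control and at 13.142, 13.145 and 13.099 in CNT cultures, so the nearest arrays almost met. Its log2 fold change was -0.07 (95% interval -0.29 to 0.15). Over the immunoproteasome genes and these lists 0 passed an adjusted p of 0.05 in limma, and 5 of the 39 measured had an unadjusted p under 0.05 (12.8% higher, against 2.41% of all genes, and 0 lower, against 0.71%). These were Psmb8, Psmb9, Psmb10, Psme1 and Psme2.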

How the data were processed

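Total RNA (100 ng) of each culture was amplified, labelled and hybridized to 1 Affymetrix Rat Genome array. The deposited values are log2 expression, which the authors made with RMA (version not given) for the probe sets of the manufacturer, where the methods name EntrezGene custom files. Of 31099 probe sets, 20826 paired with 1 gene, and the one with the highest mean per gene entered the fit. The 436 paired with several genes, 9780 with none and 57 controls did not. RMA fits all arrays to 1 distribution, so a shift of all genes would not be seen, and bright probe sets can understate differences.

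CNT and control cultures were compared over 14217 genes with limma 3.58.1 in R 4.3.3 (lmFit, eBayes, no replicate block), with Benjamini-Hochberg adjustment, a threshold of 0.05 and 95% intervals. The script was checked on simulated data. The study's rank product was not used, since its package was not installed and it resamples genes. The paper did report differentially expressed genes with rank product and the custom files, so its calls and those of limma here are not alike in method. Pairs of genes were compared by an exact permutation test (scipy 1.17.1). The genes, lists and tests were chosen with earlier results of these data known, and the limit of 1.5-fold and the GAAA repeat motif after the values were seen. All members were named; values of every array were given for members with an unadjusted p under 0.05 or separate groups, for the catalytic subunits, for the highest and lowest fold change of each subcomplex and for members whose probe sets differed in direction by over 0.5 log2 units, and, in the other lists, for up to 4 genes that passed or were separate. Psmd3 and Nfe2l1 were added after their values were seen. The 17 alternatives were array weights, eBayes with trend and robust, the mean of the probe sets, the probe set of highest SD, a replicate block, no genes from the dimmest 30%, quantile normalization, cyclic loess, median centring, a beta-actin covariate, each of the 6 arrays left out, and control 1 and CNT 2 left out together. Protein sequences were not used here.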

Additional observations from a re-analysis of the deposited data

Results flagged for a closer look

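A probe set outside the fit, shared by Psmb6 and Psmb6l1, was higher in every CNT array than in every control array, at 12.47, 12.35 and 12.51 in control and at 12.72, 12.60 and 12.69 in CNT cultures, a log2 difference of 0.23. Psmb6 is the counterpart of Psmb9, and which of the genes gave the signal cannot be told from this probe set. The log2 difference between Psmb9 and this probe set was on average 0.77 higher in CNT than in control cultures. Here the groups overlapped, with control 3 (-0.48) above CNT 1 (-0.71). A second probe set of Psmb5, also outside the fit, was at 5.62, 5.61 and 5.49 in control and at 5.65, 5.77 and 5.77 in CNT cultures, a log2 difference of 0.16 near the lower end of the array's values, where the probe set used for Psmb5 gave 0.05. None of these differences was tested, and the planned permutation test of Psmb9 against Psmb6 was not run.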

How the results depend on the processing

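In all 17 alternatives, no member passed an adjusted or an unadjusted p of 0.05 in limma and none had a mean past 1.5-fold. The median log2 fold change of the 33 genes ran from 0.0034 without CNT 1 to 0.08 without CNT 2. The number of members with every CNT array above every control array, 1 in the main comparison, was 2 (6.06%) with averaged probe sets and 2 with median centring, against 6.29% and 3.47% of all genes. It was from 1 to 7 without each array in turn, the highest without CNT 2 (8.50% of all genes), and 5 without control 1 or without CNT 1 and 4 without control 2 (11.6%, 11.1% and 10.1%). It was 11 without control 1 and CNT 2 together (33.3%, against 15.3% of all genes), and the cause was not tested. Those with every CNT array below were from 0 to 2 without each array, with 2 (6.06%, against 5.11% of all genes) without CNT 1 and 1 (3.03%, against 7.72%) without control 3. Intervals within 1.5-fold numbered from 27 to 32 of the 33, and positive fold changes from 17 (with median centring or without CNT 1) to 27 (with the beta-actin covariate, without CNT 2, or without CNT 2 and control 1). The log2 fold change had 1 sign under all 17 alternatives for 14 of the 33 genes, all positive, and up to 9 genes changed sign under 1 alternative. The share of all genes that kept 1 sign was not computed, and 58.5% of all genes were positive in the main comparison. The alternatives reuse the same arrays, so a kept sign is not a separate result. Psmd14 moved from 0.12 to 0.56 with the probe set of highest SD. With the replicate block (the shared replicate number as a term) none of the 33 was called, the lowest unadjusted p in limma was 0.21, and 498 of all genes were higher and 179 lower at an unadjusted p under 0.05, against 342 and 101 without it. The deviations of same-numbered arrays correlated at -0.13, 0.36 and 0.51, so the numbers were not taken to pair the cultures. These counts over all genes were 670 and 218 without control 3, and 73 and 43 without control 1 and CNT 2.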
